A study of Homo sapiens with 12 samples.

Results

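The genes described here are the protein-coding genes of the outer short arm of human chromosome 8 (distal 8p), from the tip of the arm to a bound at 20 Mb in the GRCh38 build. Every protein-coding gene of the count table that starts before that bound was taken, except 1 further gene of the interval, which gave 114 of the 58735 genes of the table. The interval was selected on these data, as a block that stood lower in the CCNE1 population among the 4 groups. Fold changes of CCNE1 against control entered that choice, so they are given as a description, with no test.

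The short arm of chromosome 8 is among the arms most often lost in epithelial cancers, high-grade serous carcinoma of the ovary included. It carries several genes proposed as tumour suppressors, among them DLC1, TUSC3, which helps to attach sugars to proteins, and the microtubule-binding MTUS1. Near the tip lies the defensin cluster, a run of genes for small secreted antimicrobial peptides of neutrophils and epithelia.

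RNA was sequenced from Ovcar8, a cell line long used as a model of high-grade serous ovarian cancer, in 4 groups of 3 libraries. These were CCNE1 overexpression with a first hairpin against TMLHE (shTMLHE 1), CCNE1 overexpression with a second hairpin against it (shTMLHE 2), CCNE1 overexpression without a TMLHE hairpin (the CCNE1 group), and control. Cells of every group were grown in RPMI-1640 with 5% serum, transduced with lentivirus and selected with puromycin at 3 µg/ml for 2 to 3 days. CCNE1 encodes cyclin E1, the partner of CDK2 at the start of S phase, and TMLHE encodes the first enzyme of carnitine synthesis. The labels do not say that any group was derived more than once and name no group with CCNE1 and an unrelated hairpin, and whether the replicates were separate cultures is not stated. The p-values below therefore measure only how these libraries vary, which may be technical, and effects of overexpression or knockdown cannot be told apart from whatever else distinguishes the populations.

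Library totals were 14.9 to 16.3 M (mega) counts with shTMLHE 1, 14.6 to 19.9 M with shTMLHE 2, 15.8 to 21.5 M in the CCNE1 group and 14.1 to 16.6 M in control. Levels are given as CPM, counts per M counts of the library after correction of the totals by edgeR's TMM method, with the SD over 3 libraries. The transcripts that define the groups followed the labels. CCNE1 averaged 1269 ± 49.0 CPM with shTMLHE 1, 847 ± 21.2 with shTMLHE 2, 1001 ± 34.0 in the CCNE1 group and 33.1 ± 1.28 in control, and TMLHE averaged 0.956, 0.482, 15.7 and 16.5 CPM in the same groups. Of the serous and epithelial markers, PAX8 averaged 150 CPM with shTMLHE 1, 69.9 with shTMLHE 2, 108 in the CCNE1 group and 126 in control, while the keratin KRT7 averaged 790, 863, 1177 and 265 CPM and KRT18 1535, 869, 2572 and 1309 CPM in the same groups. KRT8 was at least 2387 CPM in every library. MSLN of the same list averaged 292 CPM with shTMLHE 1, 139 with shTMLHE 2, 367 in the CCNE1 group and 530 in control. The summed level of the serous and epithelial list was 6280 to 6505 CPM with shTMLHE 1, 4308 to 4409 with shTMLHE 2, 8194 to 8299 in the CCNE1 group and 5136 to 5217 in control. EPCAM of that list was low, at 3.27 CPM with shTMLHE 1, 3.21 with shTMLHE 2, 2.73 in the CCNE1 group and 2.51 in control. WT1 and CDH6 stayed below 1 CPM and MUC16 had no count. The leukocyte gene PTPRC reached at most 0.112 CPM in any library, and the fibroblast gene DCN had no count. The summed level of the fibroblast list, led by COL1A1, was 1535 to 1628 CPM with shTMLHE 1, 1257 to 1296 with shTMLHE 2, 611 to 640 in the CCNE1 group and 900 to 967 in control, and the leukocyte and endothelial sums stayed at or below 2.90 and 3.30 CPM. Of the other fibroblast genes, COL1A2 and LUM had group means of at most 0.112 and 0.312 CPM. PDGFRB averaged 35.0 CPM with shTMLHE 1, 41.8 with shTMLHE 2, 19.6 in the CCNE1 group and 45.4 in control.

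Most of the 114 genes were silent or nearly so in these cells. No library held a count for 55 of them, among them 23 of the 24 defensin genes and GATA4, a transcription factor of heart and gut. Another 15 had some counts but too few to be tested, from 1 count over all 12 libraries for DLGAP2 to 69 for TDRP. The angiopoietin gene ANGPT2 had 9 counts in all, the kinase gene BLK 48 and the phosphatase gene MTMR7 67. The remaining 44 genes passed the filter on low counts, which keeps a gene that reaches a minimum in as many libraries as 1 group holds. A gene could pass through a single group where it was high, so values over these 44 describe the genes that could be measured and not all 114. Of the 44, 37 averaged at least 1 CPM over the 12 libraries.

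Per kilobase of exon, the protease gene CTSB stood far above the other genes, at a mean of 48.0 CPM per kilobase over all libraries. The next in level were the adaptor gene SH2D4A at 6.12, DLC1 at 5.53, TUSC3 at 4.66 and the acyltransferase gene AGPAT5 at 3.91 CPM per kilobase. The genes together took 0.0760 ± 0.00134% of the counts of a library with shTMLHE 1, 0.0820 ± 0.00146% with shTMLHE 2, 0.0557 ± 0.00116% in the CCNE1 group and 0.0994 ± 0.00241% in control (SD, n = 3 each). CTSB alone made up much of that difference, so the sum was also taken without it. Leaving CTSB out, the mean share of counts was 0.0461% with shTMLHE 1, 0.0633% with shTMLHE 2, 0.0283% in the CCNE1 group and 0.0406% in control. With TMM correction the summed level without CTSB was 425, 415 and 401 CPM with shTMLHE 1, 531, 501 and 519 with shTMLHE 2, 319, 349 and 333 in the CCNE1 group, and 489, 472 and 453 in control. The shTMLHE 1 group was thus above control as a share of counts and below it in CPM. The CCNE1 libraries were the lowest of the 4 groups in this summed level and overlapped with none of the others. The interval was chosen for being lower in the CCNE1 group, so this order is a description. The sum of the fibroblast list, led by COL1A1, was also lowest and that of the serous and epithelial list highest in the CCNE1 group. Keratins led the latter sum, while PAX8 and MSLN of that list were lower in the CCNE1 group than in control. The part of these lists in the result was not tested. In bulk RNA, fewer cells of a type and less RNA per cell cannot be told apart.

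In the contrast that picked the interval, 38 of the 44 tested genes (86.4%) had a log2 fold change below 0 in the CCNE1 group relative to control, against 46.0% of all 15378 tested genes. Their median log2 fold change was -0.61, with quartiles of -0.88 and -0.25, and the median of all tested genes was 0.05. All 3 CCNE1 libraries lay below all 3 control libraries for 21 of the 44, and above them for 3. Over all tested genes these shares were 21.4% below and 25.8% above. Since these values chose the interval, nothing is read from the counts. Among the 37 genes of at least 1 CPM, 32 were below 0 and the median was -0.52. The groups also differed in how counts depended on the GC content and length of genes. With a smooth trend on both removed from each library, the median of the 44 was -0.73 and that of all tested genes -0.01.

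The lower level was seen along most, but not all, of the interval. In the first 5 Mb from the tip the median log2 fold change of CCNE1 against control was -0.05 over 7 tested genes. The next 3 stretches of 5 Mb had medians of -0.54 over 9 genes, -0.75 over 11 and -0.60 over 17. Beyond the bound the medians of the next stretches returned to 0.06 over 30 genes and 0.07 over 25. In all, the 109 tested protein-coding genes between 20 and 45 Mb had a median of 0.11, and the 295 from 45 Mb onward had 0.20.

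**Figure D1:**
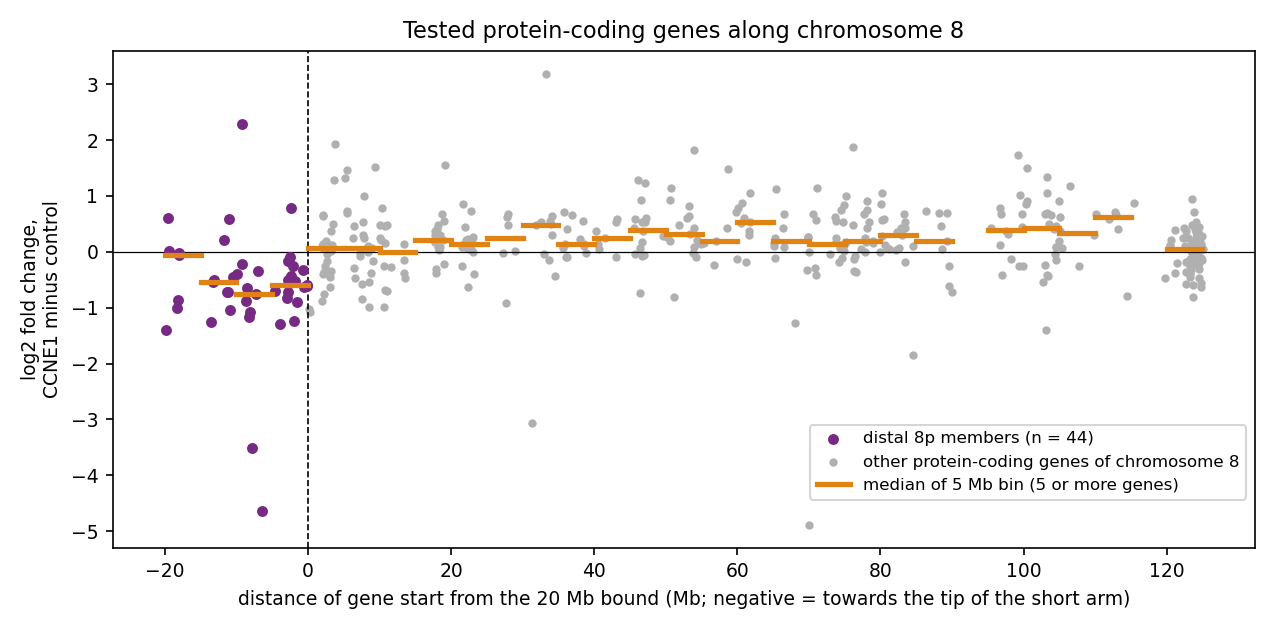
Log2 fold change of CCNE1 against control for every tested protein-coding gene of chromosome 8 (y axis) by the distance of its start from the 20 Mb bound (x axis, Mb, negative towards the tip of the short arm), with purple points for the 44 distal 8p genes, grey points for the rest and orange bars for medians of 5 Mb stretches with at least 5 genes. The bars of the 3 stretches before the bound lie at -0.54, -0.75 and -0.60, and the first after it lies at 0.06.

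At the bound itself, the 3 genes just inside were CSGALNACT1 at a log2 fold change of -0.62, INTS10 at -0.60 and LPL at -0.62. Just outside it, SLC18A1 had too few counts to be tested, and ATP6V1B2, a subunit of the proton pump of lysosomes, and LZTS1 stood at -1.02 and -1.08. ATP6V1B2 starts at 20197367 and LZTS1 at 20246165, so the genes with a lower level went past the bound.

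Among all windows of 20 Mb across the genome with at least 10 tested protein-coding genes, distal 8p had the lowest median in this contrast, and this was also so after removal of the GC and length trend. The next lowest windows were chromosome 17 from 60 Mb at -0.28 and chromosome 14 from 100 Mb at -0.28. On chromosome 10 between 80 and 100 Mb the median of 99 tested genes was 0.65, or 0.43 with the trend removed. The window was picked for its low median, so its rank is a description. DNA copy number was not analysed here.

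Against control, the hairpin groups can be set beside the CCNE1 group, with the same control libraries in each contrast. The median log2 fold change of the 44 genes against control was -0.20 with shTMLHE 1, 0.11 with shTMLHE 2 and -0.61 in the CCNE1 group. Over all tested genes these medians were 0.04, 0.01 and 0.05. The hairpin medians depended on the scaling of the libraries, as given further below. All 3 libraries lay below all control libraries for 18 genes with shTMLHE 1 (34.9% of all tested genes did) and for 13 with shTMLHE 2 (40.3% of all), and above them for 8 (37.1% of all) and 18 (41.1% of all). After removal of the GC and length trend the medians of the 44 were -0.56 with shTMLHE 1, -0.37 with shTMLHE 2 and -0.73 in the CCNE1 group. Those of all tested genes were then 0.02, 0.02 and -0.01.

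**Figure D2:**
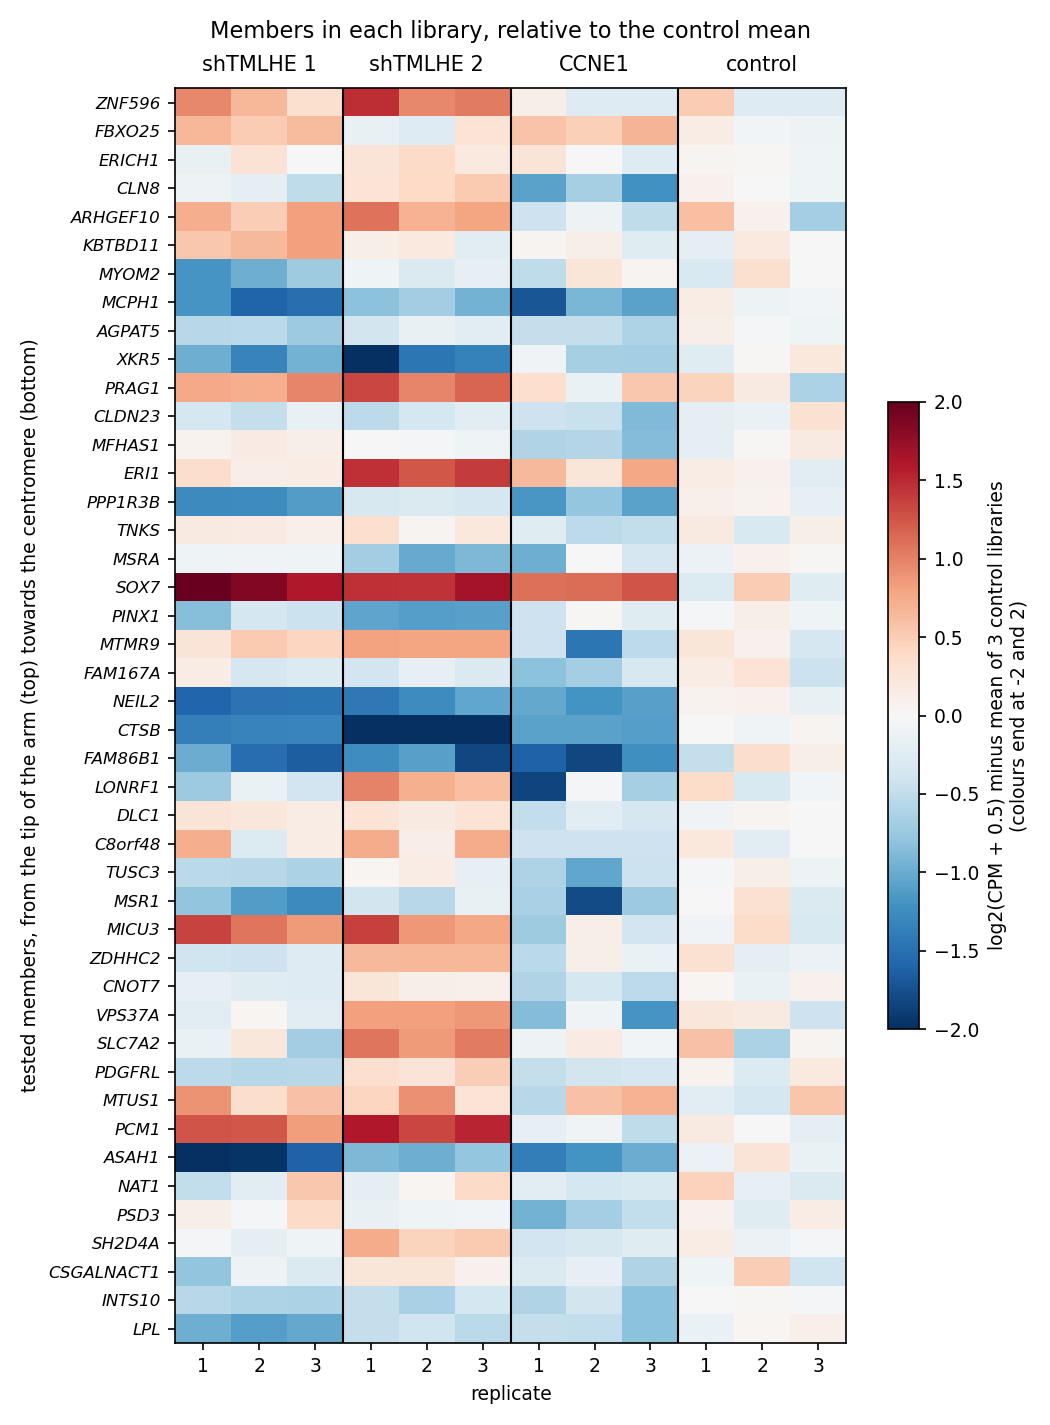
Level of each of the 44 tested distal 8p genes in each library, as log2(CPM + 0.5) minus the mean of the 3 control libraries (colour, blue below and red above), with genes in order from the tip of the arm (top) and the libraries of shTMLHE 1, shTMLHE 2, CCNE1 and control from left to right. Most genes are blue in the CCNE1 columns, while CTSB, NEIL2, MCPH1 and ASAH1 are blue in all 3 groups with CCNE1.

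Of the 6 genes of the lysosome and of lipids, all were tested, and for all 6 each CCNE1 library lay below each control library, with a median log2 fold change of -0.86. Over all tested genes 21.4% were lower in this way, and the contrast is the one that chose the interval. CTSB encodes cathepsin B, a cysteine protease of the lysosome (ENSG00000164733, 11842524 to 11869448, minus strand). It stood at 263, 269 and 273 CPM with shTMLHE 1, 152, 155 and 152 with shTMLHE 2, 327, 323 and 319 in the CCNE1 group, and 686, 654 and 711 in control. No libraries of different groups overlapped, and every group with CCNE1 was below control. The CCNE1 group differed from control by -1.08 ± 0.04 on the log2 scale (SE). CTSB fell further with each hairpin relative to the CCNE1 group, by 0.27 ± 0.04 with shTMLHE 1 (edgeR adjusted p = 2.74e-08) and by 1.08 ± 0.04 with shTMLHE 2 (adjusted p = 5.91e-26). On total counts alone, without the TMM factors, the first of these turned into a difference of 0.13 in the other direction, higher with shTMLHE 1, while the second kept its direction under every scaling.

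ASAH1, the acid ceramidase of lysosomes (18055992 to 18084998, minus strand), stood at 3.84, 4.37 and 5.69 CPM with shTMLHE 1, 9.66, 9.14 and 10.6 with shTMLHE 2, 6.72, 7.76 and 9.00 in the CCNE1 group, and 17.0, 22.0 and 16.6 in control. The control libraries were the highest and those of shTMLHE 1 the lowest. It was lower by -1.24 ± 0.16 in the CCNE1 group than in control. With shTMLHE 1 it fell by 0.77 ± 0.18 relative to the CCNE1 group (adjusted p = 0.000282), and with shTMLHE 2 the difference of 0.32 ± 0.16 did not pass the test (adjusted p = 0.0761) and was -0.83 after removal of the GC and length trend. On total counts the fall with shTMLHE 1 was 0.37 in size and no longer passed (adjusted p = 0.0618), and after removal of the trend the log2 fold change was -1.44.

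CLN8, which carries newly made enzymes out of the endoplasmic reticulum towards lysosomes, ran the other way with the hairpins. It stood at 13.4, 12.8 and 10.0 CPM with shTMLHE 1, 17.6, 19.3 and 20.9 with shTMLHE 2, 6.65, 8.97 and 5.96 in the CCNE1 group, and 15.4, 14.5 and 13.6 in control. The CCNE1 libraries were the lowest and those of shTMLHE 2 the highest. Relative to the CCNE1 group CLN8 rose by 0.74 ± 0.15 with shTMLHE 1 (adjusted p = 5.53e-05) and by 1.41 ± 0.15 with shTMLHE 2 (adjusted p = 4.07e-11). Of its exon bases 11.2% are shared with other annotated genes, so its counts are less certain.

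The lipoprotein lipase gene LPL averaged 5.98 ± 0.275 CPM with shTMLHE 1, 9.05 ± 0.492 with shTMLHE 2, 8.33 ± 1.12 in the CCNE1 group and 12.8 ± 1.08 in control. It fell with shTMLHE 1 relative to the CCNE1 group, by 0.48 ± 0.16 (adjusted p = 0.0106), which was -0.08 on total counts and no longer passed. AGPAT5, which adds a fatty acid chain to lysophosphatidic acid, averaged 14.9 ± 1.10, 19.3 ± 1.50, 15.9 ± 0.983 and 23.1 ± 1.79 CPM in the same groups. Its rise of 0.28 ± 0.11 with shTMLHE 2 relative to the CCNE1 group (adjusted p = 0.0228) became -0.30 after removal of the GC and length trend, and it was lost without CCNE1 replicate 3, shTMLHE 2 replicate 2 or shTMLHE 2 replicate 3. The list also holds CLDN23, a claudin of cell junctions, at 2.03, 1.95, 1.63 and 2.69 CPM.

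**Figure D3:**
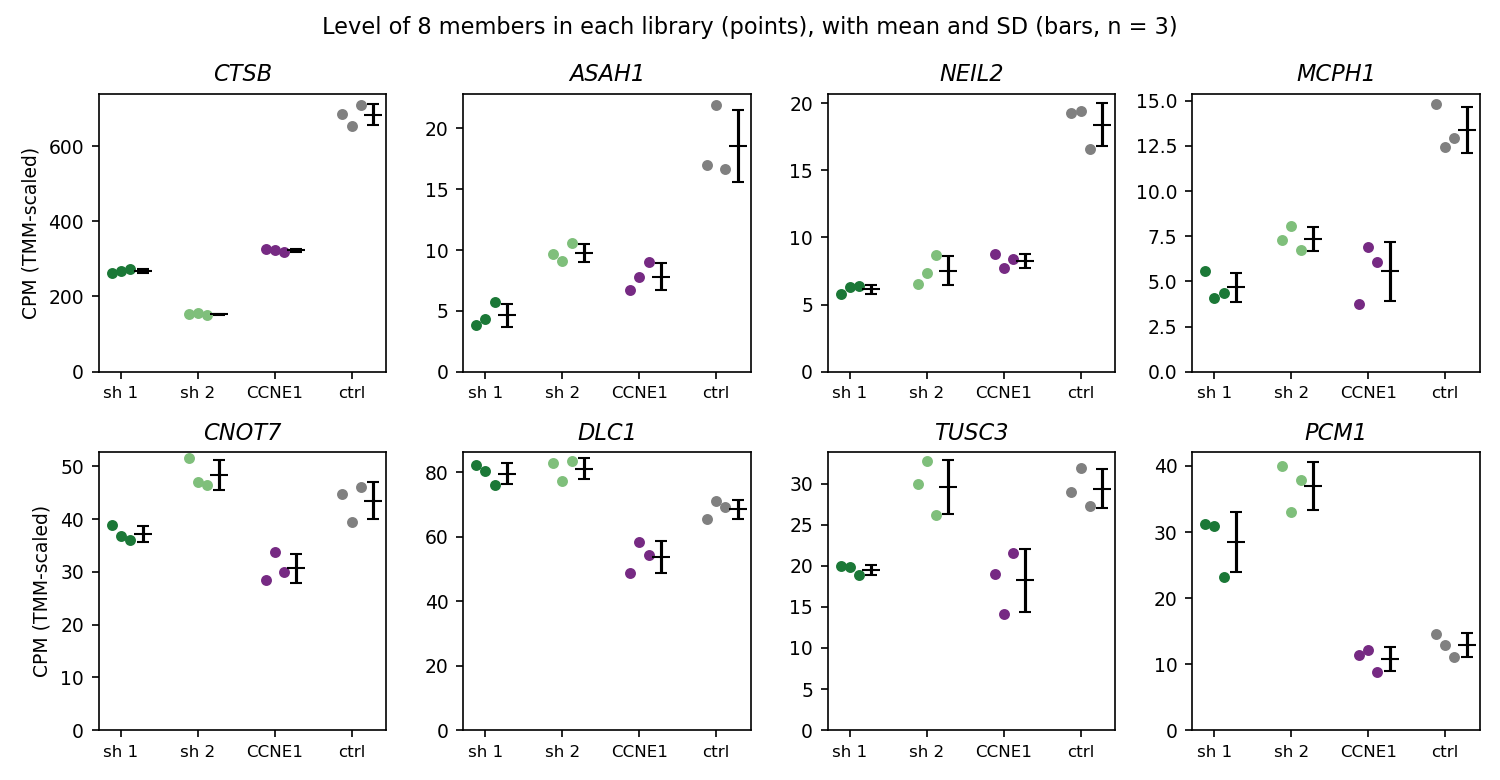
Level of 8 distal 8p genes in each library (y axis, TMM-scaled CPM from 0) for shTMLHE 1 (sh 1), shTMLHE 2 (sh 2), CCNE1 and control (ctrl), with points for libraries and bars for the mean and SD of 3 libraries. CTSB, ASAH1, NEIL2 and MCPH1 are highest in control, while DLC1 and PCM1 are higher in both hairpin groups than in the CCNE1 group.

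Genes that look after chromosomes and DNA were all below 0 in the CCNE1 group relative to control, 4 of 4 tested, with a median of -0.81. That contrast chose the interval, and 86.4% of the 44 tested members and 46.0% of all tested genes were below 0 in it. NEIL2, a glycosylase that starts the repair of oxidized bases (11769639 to 11787346, plus strand), stood at 5.75, 6.31 and 6.36 CPM with shTMLHE 1, 6.54, 7.35 and 8.69 with shTMLHE 2, 8.74, 7.70 and 8.36 in the CCNE1 group, and 19.2, 19.4 and 16.6 in control. Every library with CCNE1 lay below every control library, and the CCNE1 group differed from control by -1.16 ± 0.15. The further fall of 0.43 ± 0.16 with shTMLHE 1 (adjusted p = 0.0197) was lost under upper quartile scaling, on total counts, with no filter, with the trend removed and without CCNE1 replicate 1 or shTMLHE 1 replicate 1.

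MCPH1, microcephalin, acts in the DNA damage response and in chromosome condensation (6406592 to 6648504, plus strand). It stood at 5.59, 4.09 and 4.36 CPM with shTMLHE 1, 7.32, 8.06 and 6.73 with shTMLHE 2, 3.73, 6.88 and 6.08 in the CCNE1 group, and 14.8, 12.4 and 12.9 in control. All libraries with CCNE1 were below all control libraries, and the CCNE1 group differed from control by -1.25 ± 0.19. Neither hairpin changed it relative to the CCNE1 group by the test, at -0.26 ± 0.20 with shTMLHE 1 (adjusted p = 0.258) and 0.39 ± 0.19 with shTMLHE 2 (adjusted p = 0.064). The first passed without CCNE1 replicate 1, at -0.47, and after removal of the GC and length trend, at -0.70. The second passed under RLE scaling at 0.42, under upper quartile scaling at 0.50, on total counts at 0.92 and without CCNE1 replicate 2 at 0.57, and it passed in the other direction with the trend removed, at -0.49.

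TNKS, tankyrase 1, which modifies proteins at telomeres and in the Wnt pathway, averaged 21.9 ± 0.629 CPM with shTMLHE 1, 22.8 ± 2.36 with shTMLHE 2, 14.6 ± 1.68 in the CCNE1 group and 19.9 ± 3.47 in control. It rose by 0.59 ± 0.12 with shTMLHE 1 (adjusted p = 5.34e-05) and by 0.65 ± 0.12 with shTMLHE 2 (adjusted p = 7.81e-06). After removal of the GC and length trend these became 0.13 and -0.14. PINX1, an inhibitor of telomerase, is listed under a pair of identifiers, 1 of them without counts, and the other averaged 3.47, 2.21, 4.48 and 5.23 CPM in the same groups.

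Of the RNA-processing genes, CNOT7 and INTS10 were lower in the CCNE1 group than in control with no overlap of libraries, and ERI1 was higher. CNOT7, a deadenylase subunit of the CCR4-NOT complex, stood at 38.8, 36.7 and 36.0 CPM with shTMLHE 1, 51.5, 47.0 and 46.5 with shTMLHE 2, 28.4, 33.7 and 29.9 in the CCNE1 group, and 44.7, 39.5 and 46.1 in control. The CCNE1 libraries were the lowest and differed from control by -0.50 ± 0.08. Its rises of 0.27 ± 0.08 with shTMLHE 1 (adjusted p = 0.0039) and 0.65 ± 0.08 with shTMLHE 2 (adjusted p = 2.22e-09) turned to -0.48 and -0.69 after removal of the GC and length trend. The exons of CNOT7 have a GC content of 39.2%, and the median of all tested genes was 49.7%.

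INTS10, a subunit of the Integrator complex that processes small nuclear RNAs, averaged 13.7 ± 0.439 CPM with shTMLHE 1, 14.8 ± 1.54 with shTMLHE 2, 13.8 ± 2.26 in the CCNE1 group and 21.0 ± 0.277 in control. It did not pass the test with either hairpin, at -0.02 ± 0.13 (adjusted p = 0.92) and 0.09 ± 0.12 (adjusted p = 0.501). ERI1, an exoribonuclease that trims the ends of histone mRNA and ribosomal RNA, stood at 6.79, 5.81 and 5.87 CPM with shTMLHE 1, 15.3, 13.0 and 14.6 with shTMLHE 2, 8.51, 6.27 and 9.25 in the CCNE1 group, and 5.85, 5.55 and 4.39 in control. The shTMLHE 2 libraries were the highest and overlapped with no other group. ERI1 rose by 0.85 ± 0.16 with shTMLHE 2 relative to the CCNE1 group (adjusted p = 1.31e-05), which was -0.06 with the trend removed.

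PCM1, the scaffold protein of the granules that surround centrosomes (17922840 to 18029944, plus strand), had the smallest p of all members with shTMLHE 1. It stood at 31.3, 30.9 and 23.2 CPM with shTMLHE 1, 40.0, 33.0 and 37.9 with shTMLHE 2, 11.4, 12.2 and 8.81 in the CCNE1 group, and 14.6, 12.9 and 11.1 in control. Both hairpin groups lay above the CCNE1 and control libraries, and the last 2 groups overlapped. Relative to the CCNE1 group it rose by 1.40 ± 0.13 with shTMLHE 1 (adjusted p = 4.53e-12) and by 1.77 ± 0.12 with shTMLHE 2 (adjusted p = 1.98e-15). After removal of the GC and length trend these were 0.66 and 0.52. MTUS1 was near the floor of detection, at 0.641, 0.594, 0.434 and 0.266 CPM.

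DLC1, among the proposed tumour suppressors (13083361 to 13604610, minus strand), stood at 82.3, 80.3 and 76.0 CPM with shTMLHE 1, 82.7, 77.3 and 83.3 with shTMLHE 2, 48.6, 58.5 and 54.2 in the CCNE1 group, and 65.4, 71.1 and 69.1 in control. The CCNE1 libraries were the lowest, control was between, and the hairpin libraries were the highest. DLC1 rose by 0.56 ± 0.06 with shTMLHE 1 (adjusted p = 5.30e-10) and by 0.59 ± 0.06 with shTMLHE 2 (adjusted p = 7.30e-11), or 0.22 and 0.17 with the trend removed.

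MFHAS1, a leucine-rich repeat protein with a GTPase domain, averaged 14.6 ± 0.485 CPM with shTMLHE 1, 13.1 ± 0.468 with shTMLHE 2, 8.21 ± 0.910 in the CCNE1 group and 13.5 ± 1.76 in control. Its rises were 0.83 ± 0.14 with shTMLHE 1 (adjusted p = 1.78e-06) and 0.68 ± 0.14 with shTMLHE 2 (adjusted p = 3.19e-05), and 0.75 and 0.85 with the trend removed. PRAG1, a pseudokinase, averaged 8.37 ± 0.827, 10.7 ± 1.35, 5.56 ± 1.37 and 4.74 ± 1.84 CPM in the same groups. It rose by 0.60 ± 0.21 with shTMLHE 1 (adjusted p = 0.0131), a call lost without CCNE1 replicate 2 or shTMLHE 1 replicate 3, and by 0.96 ± 0.20 with shTMLHE 2 (adjusted p = 7.23e-05). The trend-removed values were 0.97 and 2.00. PSD3, an exchange factor for ARF6, averaged 2.68, 2.16, 1.25 and 2.35 CPM.

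Trafficking, glycosylation and transport genes were all below 0 in the CCNE1 group relative to control, 5 of 5 tested, with a median of -0.62. In that contrast, which chose the interval, 86.4% of the 44 tested members and 46.0% of all tested genes were below 0. None of the 5 passed the test with shTMLHE 1 relative to the CCNE1 group, and 4 of 5 rose with shTMLHE 2, where 30.4% and 36.8% of all tested genes were called higher. Once the trend was removed, 2 of the 4, TUSC3 and ZDHHC2, had values of 0.10 and -0.31 with shTMLHE 2. TUSC3, a subunit of the complex that attaches sugar chains to new proteins, stood at 19.9, 19.8 and 18.8 CPM with shTMLHE 1, 30.0, 32.7 and 26.1 with shTMLHE 2, 19.0, 14.1 and 21.5 in the CCNE1 group, and 28.9, 32.0 and 27.3 in control. The shTMLHE 2 and control libraries overlapped, and so did the shTMLHE 1 and CCNE1 libraries, with the first pair above the second. TUSC3 differed from control by -0.70 ± 0.12 in the CCNE1 group. It rose by 0.71 ± 0.11 with shTMLHE 2 relative to the CCNE1 group (adjusted p = 6.75e-07), a call lost after removal of the trend.

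ZDHHC2, which attaches palmitate to proteins, stood at 8.99, 8.85 and 9.87 CPM with shTMLHE 1, 19.0, 19.3 and 19.2 with shTMLHE 2, 8.07, 13.0 and 10.9 in the CCNE1 group, and 14.8, 10.5 and 10.9 in control. The shTMLHE 2 libraries were above all others. Its rise of 0.83 ± 0.14 with shTMLHE 2 relative to the CCNE1 group (adjusted p = 2.98e-06) turned direction after removal of the trend. Values for VPS37A, part of the machinery that sorts membrane proteins for degradation, were 3.95, 8.13, 2.65 and 4.43 CPM as group means. The amino acid transporter SLC7A2 averaged 4.19, 9.86, 4.72 and 5.02 CPM, and CSGALNACT1, which starts chondroitin chains, averaged 0.608, 1.13, 0.629 and 0.974 CPM.

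Of the phosphatase genes, PPP1R3B, which brings protein phosphatase 1 to glycogen, averaged 6.07 ± 0.406 CPM with shTMLHE 1, 11.8 ± 0.183 with shTMLHE 2, 7.16 ± 1.12 in the CCNE1 group and 14.8 ± 1.51 in control. MTMR9, a myotubularin relative without catalytic activity, averaged 7.25 ± 0.731, 9.62 ± 0.0726, 3.03 ± 1.20 and 5.42 ± 1.16 CPM. For both, the CCNE1 libraries lay below control without overlap, as they did for 21.4% of all tested genes. Antisense genes share 12.9% of the exon bases of MTMR9. Both were chosen for display after their values were seen, as were the other genes in these role groups that are given by group means without SD.

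A few genes stood higher in the CCNE1 group than in control. FBXO25, a substrate receptor of a ubiquitin ligase near the tip of the arm, stood at 13.9, 12.3 and 13.6 CPM with shTMLHE 1, 7.69, 7.07 and 10.4 with shTMLHE 2, 12.9, 12.1 and 13.9 in the CCNE1 group, and 9.55, 8.17 and 7.95 in control. The shTMLHE 1 and CCNE1 libraries were all above those of control, by 0.60 ± 0.16 for the CCNE1 group. With the trend removed that difference was 0.25. FBXO25 fell by 0.64 ± 0.15 with shTMLHE 2 relative to the CCNE1 group (adjusted p = 0.000223), which was -0.11 on total counts and no longer passed, and -1.59 with the trend removed. ERICH1 averaged 6.86 ± 1.14 CPM with shTMLHE 1, 8.11 ± 0.587 with shTMLHE 2, 6.70 ± 1.27 in the CCNE1 group and 6.59 ± 0.336 in control, and its CCNE1 and control libraries overlapped. The list of protein quality and redox genes, which holds FBXO25, had 5 tested members, 4 of them below 0 in the CCNE1 group relative to control. In that contrast, which chose the interval, 86.4% of the 44 tested members and 46.0% of all tested genes were below 0. With shTMLHE 1 relative to the CCNE1 group 2 of the 5 rose and none fell, and with shTMLHE 2 relative to it 2 rose and 2 fell. Of all tested genes 30.4% rose and 30.3% fell with shTMLHE 1, and 36.8% rose and 36.2% fell with shTMLHE 2.

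SOX7, a transcription factor of endothelium and endoderm, had low counts. It stood at 2.19, 1.99 and 1.57 CPM with shTMLHE 1, 1.40, 1.37 and 1.68 with shTMLHE 2, 0.971, 0.990 and 1.14 in the CCNE1 group, and 0.0697, 0.476 and 0.0828 in control. All libraries with CCNE1 lay above all control libraries, and the CCNE1 group differed from control by 2.29 ± 0.61. Of its exon bases 39.4% are shared with an entry annotated to PINX1, so reads could be split between them. MSR1, a scavenger receptor of macrophages, was the gene of at least 1 CPM that was lowest against control, at -1.30 ± 0.40. It stood at 1.37, 0.996 and 0.847 CPM with shTMLHE 1, 2.01, 1.70 and 2.41 with shTMLHE 2, 1.57, 0.440 and 1.46 in the CCNE1 group, and 2.72, 3.49 and 2.15 in control. Without CCNE1 replicate 2 its difference from control was -0.88.

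Outside these role groups, SH2D4A, an adaptor with an SH2 domain, averaged 22.3 ± 1.34 CPM with shTMLHE 1, 35.9 ± 4.02 with shTMLHE 2, 19.2 ± 1.00 in the CCNE1 group and 24.1 ± 2.38 in control. It rose by 0.91 ± 0.10 with shTMLHE 2 relative to the CCNE1 group (adjusted p = 1.46e-10), or 0.84 with the trend removed. FAM167A averaged 16.3 ± 3.21, 14.8 ± 1.13, 11.8 ± 2.21 and 18.4 ± 4.56 CPM, and its libraries overlapped between all groups. It rose with shTMLHE 1 relative to the CCNE1 group, by 0.47 ± 0.16 (adjusted p = 0.0131), a call lost without CCNE1 replicate 1, CCNE1 replicate 2 or shTMLHE 1 replicate 1, and by 0.71 with the trend removed. The lowest fitted values against control, C8orf48 and FAM86B1, rested on few counts. C8orf48 had 16 counts over the 3 libraries with shTMLHE 1, 31 with shTMLHE 2, none in the CCNE1 group and 7 in control. FAM86B1 has copies of nearly the same sequence, so its counts are uncertain.

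Both hairpin groups were set against the same CCNE1 libraries. The interval was chosen for being lower in the CCNE1 group, so a rise of its genes with a hairpin is in part given by that choice. With shTMLHE 1 relative to the CCNE1 group, 15 of the 44 were higher and 6 lower at an adjusted p under 0.05, against 30.4% and 30.3% of all tested genes. The median log2 fold change was 0.27, and 0.03 over all tested genes. Libraries did not overlap for 16 higher and 7 lower genes, against 32.5% and 31.4% of all tested genes. Among the 37 genes of at least 1 CPM, 11 were higher and 6 lower and the median was 0.11. The share of higher genes was thus near the background, and the median of the 44 was 0.07 after removal of the GC and length trend. With shTMLHE 2 relative to the CCNE1 group, 23 were higher and 5 lower, against 36.8% and 36.2% of all tested genes, and the median was 0.67, against 0.03. Libraries did not overlap for 28 higher and 4 lower genes, against 38.7% and 36.9%. Among the 37 genes of at least 1 CPM, 19 were higher and 5 lower and the median was 0.59. With the trend removed the median was 0.17. On total counts alone the medians were 0.66 with shTMLHE 1 and 1.20 with shTMLHE 2, where those of all tested genes were 0.43 and 0.56. The calls were then 25 higher and 1 lower with shTMLHE 1, against 51% and 16.2% of all tested genes, and 36 higher and 2 lower with shTMLHE 2, against 54.1% and 22.4%.

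The direct comparison of the hairpins sets no CCNE1 or control library against another. The interval was still chosen among all 4 groups, and the filter and the spread used all 12 libraries. This comparison is therefore not free of that choice. In shTMLHE 1 relative to shTMLHE 2, 6 of the 44 were higher and 18 lower, against 31.3% and 29% of all tested genes. Libraries did not overlap for 8 higher and 23 lower genes, against 34.8% and 34.9%. The median log2 fold change was -0.36, and -0.01 over all tested genes. After removal of the GC and length trend the median of the 44 was -0.27. Then 7 were higher and 12 lower, against 24.7% and 23.9% of all tested genes. CTSB was higher with shTMLHE 1 than with shTMLHE 2, by 0.81 ± 0.04 (edgeR adjusted p = 2.12e-21), or 0.44 with the trend removed. ERI1 was lower by -1.22 ± 0.16 (adjusted p = 2.89e-08), ZDHHC2 by -1.05 ± 0.14 (adjusted p = 5.31e-08) and SH2D4A by -0.69 ± 0.10 (adjusted p = 7.61e-08). With the trend removed these were -0.69, -0.46 and -0.55. The libraries of the hairpin groups did not overlap for any of these 4 genes.

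**Figure D4:**
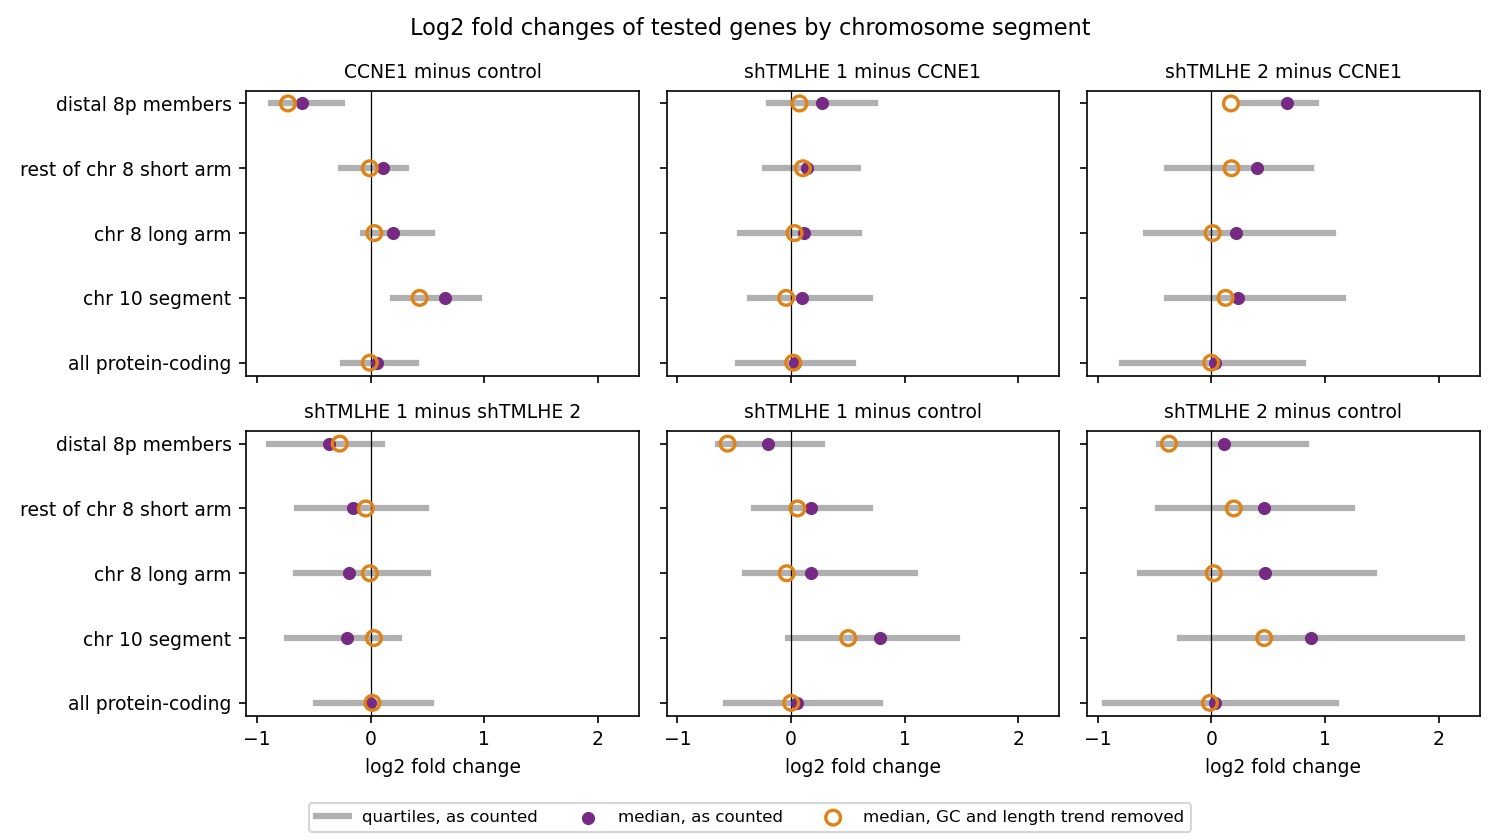
Log2 fold changes of tested genes in 6 comparisons (x axis) for the distal 8p genes, the rest of the short arm of chromosome 8 (20 to 45 Mb), its long arm (from 45 Mb), a segment of chromosome 10 (80 to 100 Mb) and all protein-coding genes, with grey bars for quartiles, filled points for medians as counted and open circles for medians after removal of the GC and length trend. The distal 8p medians are -0.61 and -0.73 for CCNE1 against control, 0.67 and 0.17 for shTMLHE 2 against CCNE1, and -0.36 and -0.27 for shTMLHE 1 against shTMLHE 2.

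GC content moved with the hairpin comparisons. The median exon GC content of the 44 genes was 45.7%, below the 49.7% of all tested genes. Across all tested genes, which are not independent replicates, Spearman's rank correlation between GC content and log2 fold change was -0.39 for CCNE1 against control, -0.38 for shTMLHE 1 against CCNE1, -0.65 for shTMLHE 2 against CCNE1 and 0.60 for shTMLHE 1 against shTMLHE 2. Across the 44 genes the same values were 0.04, -0.03, -0.37 and 0.39. Over the whole table, genes of low GC content thus tended to be higher in the CCNE1 group than in control. The distal 8p genes, low in GC content, were lower in that contrast, which chose them. The part of GC content in their level was not tested.

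Many members have a close relative elsewhere in the genome. A list of 25 such genes, called paralogues here, was compared, of which 22 could be tested and 3 lie on the long arm of chromosome 8. Among them MSRB1 was paired with MSRA by function and is no relative by sequence. In the CCNE1 group relative to control, 6 of the 22 were higher and 2 lower, against 25.1% and 19.1% of all tested genes, with a median log2 fold change of 0.09. The 2 lower were CTSL and MSRB1, and MSRB1 stood at -0.17 ± 0.06 (edgeR adjusted p = 0.0126), or -0.02 with the trend removed. TNKS2, the relative of TNKS, averaged 61.2 ± 6.97 CPM with shTMLHE 1, 70.6 ± 2.02 with shTMLHE 2, 31.5 ± 0.334 in the CCNE1 group and 16.0 ± 3.03 in control. It was higher in the CCNE1 group than in control by 0.97 ± 0.10 (adjusted p = 3.96e-10), or 0.63 with the trend removed. TNKS2 lies at 91798312 on chromosome 10, inside the segment whose median was 0.65.

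MAGT1, the relative of TUSC3, was higher in the CCNE1 group than in control by 0.58 ± 0.09 (adjusted p = 1.81e-06). ZDHHC20, the relative of ZDHHC2, was higher by 0.72 ± 0.14 (adjusted p = 5.27e-05). After removal of the GC and length trend these were 0.20 and 0.23, and 3 of the 22 were higher, against 18.1% of all tested genes. CTSL, the lysosomal protease related to CTSB, was lower in the CCNE1 group than in control by -0.44 ± 0.08 (adjusted p = 1.83e-05), or -0.36 with the trend removed. CNOT8, the relative of CNOT7, did not pass the test at -0.06 ± 0.09 (adjusted p = 0.607).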

How the data were processed

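The authors deposited a table of whole-number counts per gene for the 12 libraries. The submitters' processing notes name STAR 2.6.1, DESeq2 and the build GRCh38. Which program counted reads per gene, with which strand setting and how it handled multi-mapped reads, is not given in the sources used here. Gene starts, ends and exon lengths equalled GENCODE 29 for 100% of genes, whose transcripts gave the GC content. The FPKM table was not used.

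Counts were fitted with edgeR 4.0.16 (limma 3.58.1, R 4.3.3): filterByExpr by group kept 15378 genes, followed by TMM factors and a robust quasi-likelihood model (a mean for each of the 4 groups, all 12 libraries, 8 residual degrees of freedom). P-values were adjusted by Benjamini-Hochberg over all tested genes, with a threshold of 0.05. The GC and length trend was a spline with 5 degrees of freedom per property and library, removed by offsets. The fit was tested on simulated counts. Libraries of a group differed by more than counting noise.

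Members, lists and tests were chosen with earlier results of these data known. Genes were named by level (the 12 highest), by fold change (5 lowest and 5 highest in CCNE1 against control), by the 4 smallest p in each tested comparison, and by nearness to the bound (3 on each side). 1 gene of the interval and the results of a role list are not reported here. Alternatives were RLE, upper quartile and total-count scaling, other filters, DESeq2 1.42.0, a fit of only the groups compared, a block for the replicate number and each library left out.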

Additional observations from a re-analysis of the deposited data

Results flagged for a closer look

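The change with shTMLHE 1 relative to the CCNE1 group was set against the change with shTMLHE 2, which is the log2 difference between the hairpin groups, and 14 of the 24 named members differed by edgeR at an adjusted p under 0.05. Of all tested genes 31.3% were higher and 29% lower in this comparison, and 4 of the 14 (CTSB, ERI1, ZDHHC2 and SH2D4A) had been named for a small p in it. The difference was above 0 for CTSB at 0.81 and FBXO25 at 0.67. It was below 0 for ERI1 at -1.22, ASAH1 at -1.08, ZDHHC2 at -1.05 and MSR1 at -0.92. Smaller differences below 0 were found for SH2D4A at -0.69, CLN8 at -0.67, MCPH1 at -0.65, TUSC3 at -0.60, LPL at -0.60, CNOT7 at -0.38, AGPAT5 at -0.37 and PCM1 at -0.37. With the GC and length trend taken out, CNOT7, AGPAT5 and PCM1 turned direction, at 0.21, 0.07 and 0.14. TUSC3, MCPH1, LPL and MSR1 lost the call, at -0.17, -0.21, -0.32 and -0.36. CTSB was then 0.44, FBXO25 1.12, ERI1 -0.69, ASAH1 -0.61 and ZDHHC2 -0.46. The call of MSR1 was lost in 8 alternatives and that of PCM1 without shTMLHE 1 replicate 3.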

How the results depend on the processing

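Of 1680 alternative values for single genes, 1521 kept direction and side of the threshold (90.5%). Group results were judged by another rule. A median had to keep its direction and move by less than the combined SD of the library medians of the compared groups. A count of calls had to stay near its main value. By that rule 217 of 240 were unchanged (90.4%), among them results of CCNE1 against control, which chose the interval. After removal of the GC and length trend, the median log2 fold change of the 44 genes was 0.07 for shTMLHE 1 against CCNE1, 0.17 for shTMLHE 2 against CCNE1, -0.27 for shTMLHE 1 against shTMLHE 2, -0.56 for shTMLHE 1 against control and -0.37 for shTMLHE 2 against control. On total counts the same medians were 0.66, 1.20, -0.50, 0.17 and 0.62, while those of all tested genes moved to 0.43, 0.56, -0.15, 0.41 and 0.52. For shTMLHE 1 against CCNE1 the median was 0.17 with the compared groups alone and 0.17 with the strict filter. For shTMLHE 2 against CCNE1 it was 0.78 under upper quartile scaling, where that of all tested genes was 0.14. The cause was not tested.

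Counts of calls moved as well. With the trend removed, 11 genes were lower with shTMLHE 1 (28.2% of all tested genes) and 10 with shTMLHE 2 (31.1%) against CCNE1. For CCNE1 against control 3 paralogues were then higher, where 18.1% of all tested genes were. On total counts, 25 were higher and 1 lower with shTMLHE 1 against CCNE1, and 36 higher and 2 lower with shTMLHE 2 against CCNE1, where 51% and 16.2%, and 54.1% and 22.4%, of all tested genes were called. Without control replicate 1 or without CCNE1 replicate 3, 1 paralogue was lower.

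Leaving out each library in turn gave medians of -0.59 to -0.49 for CCNE1 against control. These values chose the interval, so their range is no sign of stability. For the paralogues 5 to 6 were higher and 1 to 3 lower. For shTMLHE 1 against CCNE1 the median was 0.18 to 0.28, with 12 to 16 higher and 4 to 7 lower. For shTMLHE 2 against CCNE1 it was 0.62 to 0.70, with 21 to 25 higher and 4 to 5 lower. For shTMLHE 1 against shTMLHE 2 it was -0.38 to -0.32, with 4 to 5 higher and 16 to 18 lower. Against control it was -0.28 to -0.13 with shTMLHE 1 and 0.05 to 0.18 with shTMLHE 2.

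Single genes turned direction as follows. For shTMLHE 1 against CCNE1, upper quartile scaling gave INTS10 0.07, MSR1 0.02 and CSGALNACT1 0.03. Total counts gave CTSB 0.13, AGPAT5 0.31, INTS10 0.38, ZDHHC2 0.17, MSR1 0.32, MCPH1 0.13, ERI1 0.02 and CSGALNACT1 0.33. Removing the trend gave CNOT7 -0.48, TUSC3 -0.07, FBXO25 -0.48 and ERICH1 -0.21. For shTMLHE 2 against CCNE1, total counts gave NEIL2 0.39 and CCNE1 itself 0.29. Removing the trend gave CNOT7 -0.69, TNKS -0.14, AGPAT5 -0.30, INTS10 -0.34, ZDHHC2 -0.31, MSR1 -0.25, MCPH1 -0.49, ASAH1 -0.83, NEIL2 0.30, ERI1 -0.06, LPL -0.15, ATP6V1B2 -0.56, LZTS1 0.08 and CCNE1 0.07. Between the hairpins, removing the trend gave DLC1 0.05, CNOT7 0.21, PCM1 0.14, TNKS 0.27, AGPAT5 0.07, INTS10 0.17, FAM167A -0.34 and MFHAS1 -0.10. Leaving out a library turned some genes with small differences. For shTMLHE 1 against CCNE1 the ranges were -0.35 to 0.25 for CSGALNACT1, -0.10 to 0.18 for ERICH1, -0.02 to 0.08 for FBXO25, -0.13 to 0.12 for INTS10, -0.49 to 0.21 for MSR1 and -0.06 to 0.25 for TUSC3. For shTMLHE 2 against CCNE1 the range was -0.02 to 0.23 for INTS10. Between the hairpins the ranges were -0.06 to 0.00 for DLC1, -0.03 to 0.24 for FAM167A and -0.13 to 0.02 for TNKS.

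The replicate numbers did not pair the libraries, since all 18 correlations between same-numbered libraries lay between -0.0473 and 0.0210. With the replicate number as a block, 16 genes were higher and 6 lower for shTMLHE 1 against CCNE1, 23 and 5 for shTMLHE 2 against CCNE1, and 5 and 17 for shTMLHE 1 against shTMLHE 2. Genes below 1 CPM rest on few counts, and their folds are the least certain.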

Other observations

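Beside the protein-coding genes, 7 noncoding genes and pseudogenes of the same interval passed the filter on low counts. All 7 had a log2 fold change below 0 in the CCNE1 group relative to control, with a median of -0.70. That contrast picked the interval, and 46.0% of all tested genes were below 0 in it. For 4 of them, AC100810.1, FAM86B3P, AC025857.2 and AC016065.1, the CCNE1 libraries lay below those of control without overlap, at -0.70, -1.71, -1.92 and -2.13. This was so for 21.4% of all tested genes. AC016065.1 is annotated antisense to MCPH1 and overlaps its exons, and the strand setting of the counts is not known, so reads of the shared bases cannot be told apart. AC100810.1, annotated antisense, starts inside CLN8, and AC025857.2, annotated sense intronic, starts inside CTSB, though they share no exon bases with those genes. FAM86B3P bears the family name of FAM86B1, whose counts are uncertain. Whether these counts are separate from those of the protein-coding genes was not tested. ATP6V1B2, just outside the bound, averaged 68.4 ± 0.745 CPM with shTMLHE 1, 36.0 ± 0.913 with shTMLHE 2, 32.4 ± 4.62 in the CCNE1 group and 65.6 ± 0.787 in control. As counted, the shTMLHE 1 and control levels were close to each other, and those of shTMLHE 2 and CCNE1 were as well. With the GC and length trend removed, shTMLHE 1 differed from control by -0.53 and shTMLHE 2 from CCNE1 by -0.56 (log2).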
